A study of Rattus norvegicus with 6 samples.

Results

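The genes described here encode enzymes that pass electrons to oxygen, and their partner subunits, here measured in rat brain microvascular endothelial cells (rBMECs). They are 7 NADPH oxidase genes (Cyba, Cybb, Nox1, Nox4, Ncf1, Ncf4 and Noxo1) and Xdh, xanthine dehydrogenase. The genes were taken by name from the deposited table, and all 8 were found among its 33566 rows. The study treated cultured rBMECs with homocysteine (Hcy) or vehicle (Veh) and compared 3 Hcy libraries with 3 Veh libraries of poly(A) RNA. Hcy cells received 100 µM homocysteine for 24 h according to the labels, which also name a prepared Hcy solution of 50 µM, and Veh cells received the ddH2O solvent. All cells were primary cultures from the brain cortex of SD rats aged 18 to 22 days, put through a purification step against other cells and used after 1 passage, with no genetic change in either group. Whether libraries came from separate isolations is not stated in the labels beyond the words for biological replicates, so p-values measure the spread between these libraries.

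NADPH oxidases carry electrons from NADPH across a membrane to oxygen. A catalytic NOX protein holds the electron path. NOX1, NOX2 (Cybb) and NOX4 each pair with the small membrane protein p22phox (Cyba). NOX2, the oxidase of phagocytes, is silent until cytosolic proteins, among them p47phox (Ncf1) and p40phox (Ncf4), and a RAC GTPase join it. NOX1 uses the organizer NOXO1 and the activator NOXA1 in the same way, while NOX4 needs none of these and releases mostly hydrogen peroxide. Xanthine dehydrogenase makes uric acid in purine breakdown, and its oxidase form passes electrons to oxygen.

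Libraries held 14024997 to 16764584 counts, and 3 counts, the floor of detection used here, correspond to 0.178 to 0.215 CPM (counts scaled to a common library size, with TMM factors). Of the genes listed as endothelial markers, 14 of 16 had enough counts to be tested, and their summed level was 11000 to 11400 CPM in Hcy and 9620 to 11100 CPM in Veh. Of the 14, 7 were higher and 7 lower in Hcy, and 7 had an unadjusted p under 0.05 in edgeR (13.4% of all genes did). None passed the adjusted p. The groups did not overlap for 8 (20.1% of all genes). Kdr, Flt1, Tie1 and Vwf were higher and Tek, Eng, Slc2a1 and Mfsd2a lower. Pecam1 was not analysed here and Cldn5 had 0 counts in all libraries. The study detected Claudin-5 protein in rBMECs by Western blot, so 0 counts here need not mean that a gene is absent. Smooth muscle and pericyte markers summed to 680 to 707 CPM in Hcy and 1120 to 1350 CPM in Veh, and 3 of its 10 genes, the contractile genes Acta2, Tagln and Cnn1, passed the adjusted p in edgeR, all lower in Hcy, where 2.34% of all genes passed and 1.01% were lower. Tagln alone carried most of that sum (582 against 1070 CPM, Hcy and Veh means), while the list split into 5 higher and 5 lower with a median log2 fold change of 0.25, and its pericyte genes Cspg4 (1.66), Rgs5 (1.26), Abcc9 (0.87) and Pdgfrb (0.73) had positive values and Kcnj8 (-0.99) a negative one, none of which passed the adjusted p. The microglia and macrophage list summed to 9.07 to 10.3 CPM in Hcy and 10.6 to 11.7 CPM in Veh, and 6 of its 18 genes (Ptprc, Cx3cr1, P2ry12, Trem2, Tyrobp and C1qb) had 0 counts in all libraries. Of this list 7 genes were tested and none passed the adjusted p in edgeR or had an unadjusted p under 0.05, with most of the sum from Cd14 (635 counts over the 6 libraries) and fewer reads of Cd68 (109), Tmem119 (67), Spi1 (65) and Aif1 (32). The part of these markers in the results below was not tested. Veh replicate 3 stood apart from the other Veh libraries on the second principal component, at 30.4 against -16 and -19, so results are also given without it where that changes them. In bulk RNA, fewer cells of a type and less RNA per cell cannot be told apart.

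The study set Hcy beside DNA methylation and reactive oxygen species, so the promoter windows are shown first. Promoters of 7 of the 8 genes were found in RefSeq (build GRCr8), read as the 250 bases before each gene's start. The 3 below are Nox4 and Cyba, a partner pair and the most abundant of the 8 genes, and Cybb, whose transcript was close to the floor. Capitals mark CpG, the dinucleotide that carries DNA methylation. The Nox4 window lies at chr1:150313639-150313888 on the plus strand, the Cyba window at chr19:67404215-67404464 on the minus strand and the Cybb window at chrX:16065066-16065315 on the minus strand.
Nox4: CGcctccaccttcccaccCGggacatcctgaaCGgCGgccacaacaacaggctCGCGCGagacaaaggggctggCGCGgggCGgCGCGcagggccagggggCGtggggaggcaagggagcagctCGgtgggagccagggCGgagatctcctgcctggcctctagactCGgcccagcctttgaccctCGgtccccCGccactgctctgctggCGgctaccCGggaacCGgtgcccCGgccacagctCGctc
Cyba: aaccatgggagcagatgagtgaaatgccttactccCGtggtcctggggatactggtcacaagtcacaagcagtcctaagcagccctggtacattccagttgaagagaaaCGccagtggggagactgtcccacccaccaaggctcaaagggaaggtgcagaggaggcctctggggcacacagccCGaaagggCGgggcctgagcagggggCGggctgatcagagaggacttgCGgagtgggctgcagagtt
Cybb: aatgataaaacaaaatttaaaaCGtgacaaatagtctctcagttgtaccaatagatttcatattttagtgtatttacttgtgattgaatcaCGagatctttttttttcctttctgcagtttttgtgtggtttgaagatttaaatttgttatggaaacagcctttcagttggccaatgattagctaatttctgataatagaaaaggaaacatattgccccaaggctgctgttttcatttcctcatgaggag
The Nox4 window held 23 CpG and was 72.8% G or C, and 87.7% of the 33465 RefSeq promoter windows of this length had fewer CpG. The Cyba window held 6 CpG and was 59.6% G or C. The Cybb window held 2 CpG and was 32% G or C. The median over all windows was 5 CpG. The other members had 7 (Xdh), 7 (Ncf1), 2 (Nox1) and 2 (Noxo1). The GC box GGGCGG, searched on both strands, occurred 2 times in Nox4, 2 times in Cyba and 1 time in Ncf1, and was in 30.5% of all windows. Methylation of these windows was not measured in the RNA libraries, and the RefSeq start need not be the one used in rBMECs.

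Levels between genes were compared per kilobase of the deposited gene length (RPKM), as means over all 6 libraries. Cyba stood highest at 106 RPKM, above 94.2% of the genes tested. Nox4 followed at 34.2 RPKM, above 82.8% of them. Xdh was at 4.63 RPKM and Nox1 at 1.46 RPKM. The ranges of these neighbours over the 6 libraries did not overlap: Cyba lay between 85 and 128 RPKM, Nox4 between 27.2 and 42.2, Xdh between 3.99 and 5.26, and Nox1 between 1.02 and 1.93. Ncf4 (0.148 RPKM), Cybb (0.123), Noxo1 (0.0985) and Ncf1 (0.0497) came last, and their ranges overlapped, so the order among them is not resolved. Of the RPKM of the 3 catalytic genes Nox4, Nox1 and Cybb, Nox4 held 94.5%, 97.1% and 96.2% in Hcy replicates 1, 2 and 3 and 94.3%, 95% and 95.9% in Veh replicates 1, 2 and 3. The share of Cybb stayed between 0.195% and 0.477%. Per kilobase, Cyba exceeded Nox4 by a ratio of 2.6 to 3.64 in Hcy and 2.81 to 4.17 in Veh, ranges that overlap.

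**Figure D1:**
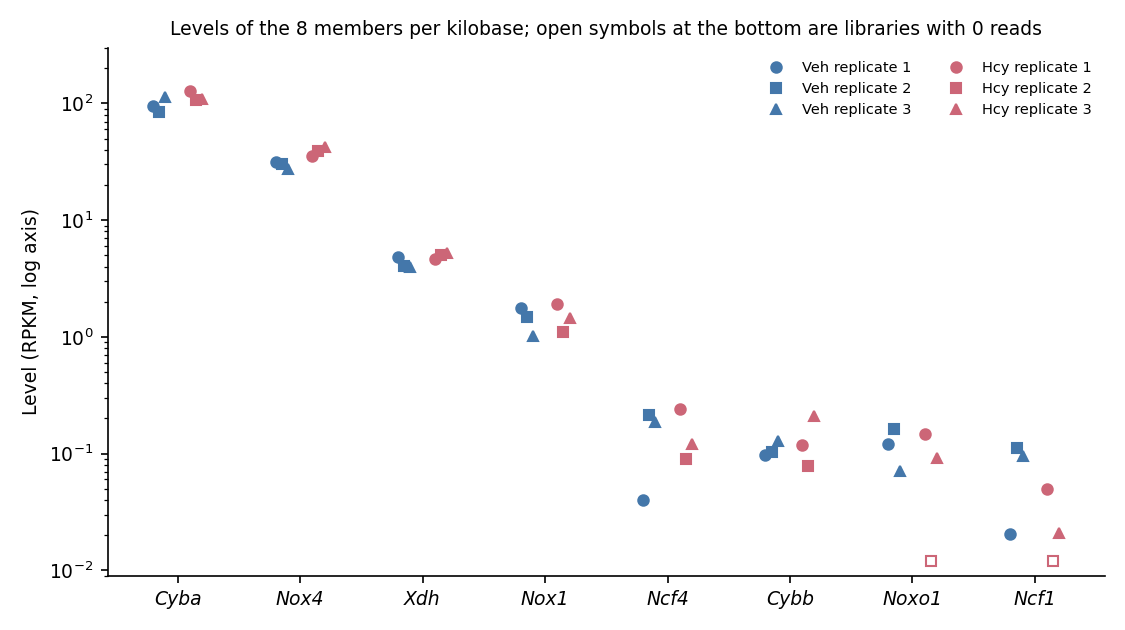
Level of each of the 8 genes in each library, in RPKM on a log axis, with Veh in blue and Hcy in red and a symbol per replicate. Cyba and Nox4 sit highest, Ncf4, Cybb, Noxo1 and Ncf1 lie under 0.3 RPKM, and Hcy replicate 2 had 0 reads of Noxo1 and of Ncf1.

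Hcy was tested against Veh by the quasi-likelihood method of edgeR over the 14603 genes with at least 10 counts in all, and a called gene had to reach 0.05 after Benjamini-Hochberg adjustment and a log2 fold change of 1 or more in size. All 8 genes had enough counts to be tested. None was called (0 of 8), where the background over all genes was 0.486% (71 of 14603), made up of 0.253% higher and 0.233% lower in Hcy. None passed the adjusted p alone, where the background was 2.34% (1.32% higher and 1.01% lower), and 1, Nox4, had an unadjusted p under 0.05, where the background was 13.4%. DESeq2 also called 0 of the 8 at both thresholds, against 0.685% of all genes, and with it Nox4 passed the adjusted p alone, as did 4.14% of all genes. The CPM ranges of the groups did not overlap for 1 of the 8, Nox4, where the background was 20.1% in either direction and 10.8% higher in Hcy. The median log2 fold change was 0.13 over the 8 genes and -0.02 over all genes tested. Of the 8, 6 were higher and 2 lower in Hcy, where 6854 of all genes tested were higher and 7749 lower.

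Nox4 showed the smallest p of the 8 genes and was about 1.31 times as abundant in Hcy. In the deposited positions, which name no build, it (ENSRNOG00000013925) lies on chromosome 1 (plus strand, 150797084 to 150976194). It had 1841, 2183 and 2654 counts in Hcy replicates 1, 2 and 3, against 1976, 1782 and 1472 in the Veh replicates. Scaled to library size, these were 132, 147 and 158 CPM in Hcy and 117, 114 and 102 CPM in Veh. Every Hcy library was above every Veh library once scaled. Group levels were 146 ± 13.1 CPM in Hcy against 111 ± 8.04 CPM in Veh (mean ± SD, n = 3 per group). Hcy over Veh, this was a log2 fold change of 0.39 (standard error 0.09, 95% interval 0.19 to 0.60), a level 31.4% higher in Hcy. It did not pass the threshold with edgeR's quasi-likelihood test (unadjusted p = 0.00191, adjusted p = 0.0652), and by p Nox4 was gene 427 of 14603. The interval lies under the fold-change threshold of 1 throughout.

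The Nox4 difference kept its sign in every alternative run and was called in none, while its adjusted p crossed 0.05 in 3 of them. Over all 13 alternatives the log2 fold change ran from 0.33 to 0.46. DESeq2 gave an adjusted p of 0.00483, edgeR without a filter on low counts 0.0322, and edgeR without Veh replicate 3 gave 0.0315 with a log2 fold change of 0.34. Over all genes the adjusted p alone was passed by 2.48% with no filter and by 6.67% without Veh replicate 3 (957 of 14352 genes, against 341 of 14603 with all libraries), so passing in that fit was common. The other 10 did not pass, with adjusted p up to 0.285 in edgeR without Hcy replicate 3. Among these 10, the prior count of 2 alters only the fold change and so repeats the main fit's p. In the fits without a library other than Veh replicate 3, only 80 to 151 genes of the whole table passed. With the replicate number as a block, the adjusted p of Nox4 was 0.117 from edgeR.

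**Figure D2:**
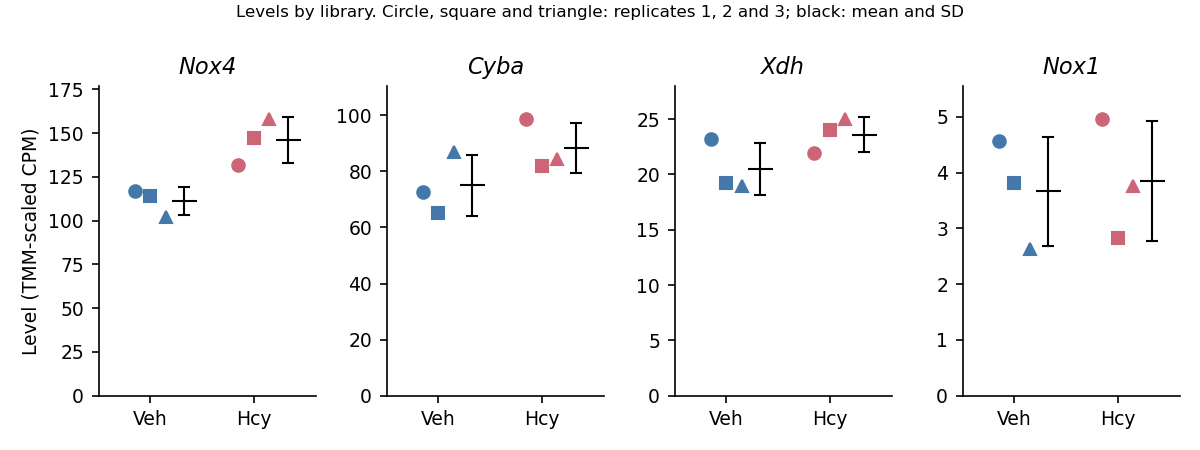
Levels of Nox4, Cyba, Xdh and Nox1 in each library, in TMM-scaled CPM on linear axes from 0, with the mean and SD of each group in black. For Nox4 all Hcy libraries (132 to 158 CPM) lie above all Veh libraries (102 to 117 CPM), and for the other 3 genes the groups overlap.

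Cyba, which encodes the p22phox partner of NOX4, leaned the same way by a smaller margin. The table places it (ENSRNOG00000013014) on chromosome 19 (minus strand, 55249616 to 55257876). Its levels were 98.6, 81.9 and 84.3 CPM in Hcy replicates 1, 2 and 3 and 72.8, 65.2 and 87 CPM in Veh replicates 1, 2 and 3. The groups overlapped because Veh replicate 3 was above Hcy replicates 2 and 3. Group levels were 88.3 ± 9.01 CPM in Hcy against 75 ± 11 CPM in Veh (mean ± SD, n = 3 per group). The log2 fold change of 0.24 (standard error 0.12, 95% interval -0.03 to 0.50) did not pass the threshold (edgeR quasi-likelihood adjusted p = 0.459). Without Veh replicate 3 the log2 fold change of Cyba was 0.35 and its adjusted p was 0.0479 in edgeR, in the fit where 6.67% of all genes passed. The other 12 alternatives did not pass, and of them the prior count of 2 repeats the main fit's p. In Veh replicate 3, Nox4 was the lowest of the 6 libraries and Cyba the second highest.

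**Figure D3:**
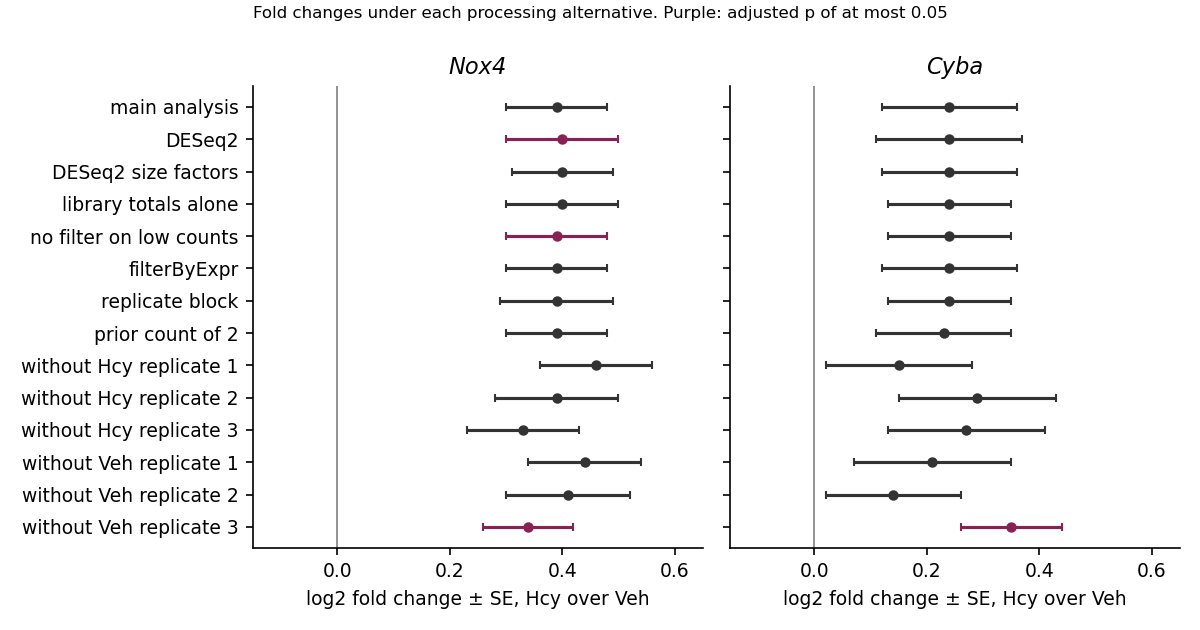
Log2 fold change of Nox4 and of Cyba, Hcy over Veh, with its standard error, under the main analysis and each alternative, in purple where the adjusted p was at most 0.05. Values of Nox4 stay between 0.33 and 0.46, and those of Cyba between 0.14 and 0.35.

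Nox1, a catalytic gene best known from colon epithelium and smooth muscle, was low. The table places it (ENSRNOG00000048706) on chromosome X (minus strand, 104909326 to 104932508). It had 69, 42 and 63 counts in Hcy replicates 1, 2 and 3, against 77, 60 and 38 in the Veh replicates. Neither group was above the other, with 3.85 ± 1.07 CPM in Hcy against 3.67 ± 0.979 CPM in Veh (mean ± SD, n = 3 per group). The log2 fold change was 0.06 (95% interval -0.57 to 0.69, edgeR quasi-likelihood adjusted p = 0.96), so a change of up to about 1.61-fold upward is within the interval. Its sign rested on single libraries, at -0.16 without Hcy replicate 1 and -0.13 without Veh replicate 3. Its positions overlap those of Cstf2, a gene on the other strand with 3815 counts over the 6 libraries. Whether reads were counted by strand is not given in the sources used here, so Nox1 reads and Cstf2 reads cannot be told apart there. Of the organizer and activator of NOX1, Noxo1 had 4, 0 and 3 counts in Hcy replicates 1, 2 and 3, against 4, 5 and 2 in the Veh replicates. Noxa1 had 1 count in all 6 libraries together.

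Cybb, the NOX2 core, had 7, 5 and 15 counts in Hcy replicates 1, 2 and 3, against 7, 7 and 8 in the Veh replicates. The table places it (ENSRNOG00000003622) on chromosome X (plus strand, 14578264 to 14612547), while GRCr8 has it on the minus strand, so positions of the deposited table and of GRCr8 are not interchangeable. Hcy replicate 3 held the highest value and Hcy replicate 2 the lowest. The log2 fold change was 0.31 (95% interval -0.84 to 1.46, edgeR quasi-likelihood adjusted p = 0.863), and without Hcy replicate 3 it was -0.17 (edgeR adjusted p = 0.966). Its cytosolic partners were closer still to the floor. Ncf4 (p40phox) had 5, 2 and 3 counts in Hcy replicates 1, 2 and 3, against 1, 5 and 4 in the Veh replicates. Ncf1 (p47phox) had 2, 0 and 1 counts in Hcy replicates 1, 2 and 3, against 1, 5 and 4 in the Veh replicates.

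In the table Ncf4 (ENSRNOG00000006940) lies on chromosome 7 (119482272 to 119499425), Ncf1 (ENSRNOG00000001480) on chromosome 12 (25497104 to 25506300) and Noxo1 (ENSRNOG00000025117) on chromosome 10 (14062331 to 14066918), all on the plus strand. On the log2 scale the fitted differences were 0.04 for Ncf4 (95% interval -1.80 to 1.88), -0.57 for Noxo1 (-2.71 to 1.57) and -1.59 for Ncf1 (-4.14 to 0.97). Leaving out 1 library moved Noxo1 between -1.25 (without Hcy replicate 1) and -0.02 (without Hcy replicate 2), and Ncf1 between -2.5 and -1.06 (without the same libraries). Counting error alone bounds these low genes loosely. The 3 Ncf1 counts in Hcy against 10 in Veh give a ratio of 0.309 with an exact 95% counting interval of 0.0547 to 1.2. The ratio was 1.03 (0.385 to 2.76) for Ncf4, with 10 counts in each group, 0.656 (0.216 to 1.85) for Noxo1 with 7 and 11 counts, and 1.27 (0.694 to 2.33) for Cybb with 27 and 22 counts. Each interval includes no difference, so none was detectable at this depth. These intervals cover counting error only. Rac2, the RAC GTPase of blood cells, had 1 count over all libraries, beside the macrophage list above, in which some genes were at 0 and others, such as Cd14 and Spi1, had reads. The neutrophil list summed to 3.52 to 4.7 CPM in Hcy and 2.08 to 2.63 CPM in Veh, nearly all of it from S100a9. S100a9 had 283 counts and was higher in every Hcy library (4 against 2.18 CPM, log2 fold change 0.87, edgeR adjusted p = 0.107), while the granule genes Mpo and Elane had 2 and 0 counts in all 6 libraries.

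Xdh (ENSRNOG00000007081), placed on chromosome 6 (minus strand, 25149235 to 25211494, but plus in GRCr8), was at 21.9, 24 and 25 CPM in Hcy replicates 1, 2 and 3 and at 23.2, 19.2 and 19 CPM in Veh replicates 1, 2 and 3. The groups overlapped, since Veh replicate 1 was above Hcy replicate 1. Group levels were 23.6 ± 1.58 CPM in Hcy against 20.5 ± 2.34 CPM in Veh (mean ± SD, n = 3 per group). The log2 fold change of 0.21 (standard error 0.11, 95% interval -0.05 to 0.47) did not pass the threshold (edgeR quasi-likelihood adjusted p = 0.499). Across the 13 alternatives it lay between 0.16 and 0.31, and the adjusted p of Xdh stayed between 0.349 and 0.805.

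Genes that work with xanthine dehydrogenase were read from a list of 12, of which 11 were tested. Most make its molybdenum cofactor or supply its substrates, and the list also holds Aox1, which uses the same cofactor, Uox, which breaks down uric acid, and Hprt1, which salvages hypoxanthine. None was called by edgeR (0 of 11, against 0.486% of all genes), 4 had an unadjusted p under 0.05 (against 13.4%), and 1, Mocos, passed the adjusted p alone (against 2.34%). With DESeq2, Gda, Mocos and Ada passed it (3 of 11, against 4.14%), and without Veh replicate 3 Gda, Mocos and Pnp did (3 of 11, against 6.67%). The median log2 fold change of the list was -0.19. Mocos encodes the sulfurase that adds the final sulfur to the molybdenum cofactor of xanthine dehydrogenase and aldehyde oxidase. It was at 3.3, 3.49 and 3.16 CPM in Hcy replicates 1, 2 and 3 and at 6, 5.54 and 5.68 CPM in Veh replicates 1, 2 and 3. All Hcy libraries lay below all Veh libraries, with a level 0.579 times that of Veh. As a log2 fold change this was -0.79 (standard error 0.17, 95% interval -1.17 to -0.41, edgeR quasi-likelihood adjusted p = 0.0492). Its adjusted p was near the threshold, which 5 of 13 alternatives passed, among them the prior count of 2, which repeats the main fit's p. Over the alternatives the adjusted p of Mocos ran from 0.0402 to 0.201, and with the replicate block it was 0.102 from edgeR. It passed in 1 of the 6 edgeR fits that left out a library, the one without Veh replicate 3. Its log2 fold change stayed between -0.83 and -0.75 in those 6 fits. Where it did not pass among them, only 80 to 151 genes of the whole table did.

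The purine deaminase Gda, which turns guanine into xanthine, the substrate of Xdh, had a log2 fold change of 1.19 (95% interval 0.53 to 1.86). Its levels were 13, 20.6 and 17 CPM in Hcy replicates 1, 2 and 3 and 8.85, 9.24 and 3.95 CPM in Veh replicates 1, 2 and 3. The groups did not overlap, and Veh replicate 3 was lowest by a wide margin. Gda did not pass with edgeR (adjusted p = 0.085), but DESeq2 called it (adjusted p = 0.0007), as did edgeR with no filter on low counts (adjusted p = 0.0156). DESeq2 called 1 of the 11, against 100 of the 14603 genes overall. Without Veh replicate 3 the log2 fold change of Gda was 0.90 with an adjusted p of 0.017 in edgeR, again in the fit where 6.67% of all genes passed. Chosen after their values were seen, Mocs2, a subunit of molybdopterin synthase, had a log2 fold change of -0.34 (edgeR adjusted p = 0.195), and Ada, adenosine deaminase, one of -0.37 (edgeR adjusted p = 0.114, DESeq2 adjusted p = 0.0301). Both had non-overlapping groups, lower in Hcy, and Mocs2 did not pass with DESeq2 (adjusted p = 0.145). Pnp, the purine nucleoside phosphorylase that yields hypoxanthine and guanine, had a log2 fold change of 0.16 (edgeR adjusted p = 0.488), and 0.25 without Veh replicate 3 (edgeR adjusted p = 0.0381). Aldehyde oxidase Aox1, the other user of the Mocos product on this list, had 16 counts in all.

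Of 15 further NADPH oxidase genes in the table, 8 were tested. None was called by edgeR or DESeq2 (0 of 8), against 0.486% and 0.685% of all genes. In edgeR 1 of the 8 had an unadjusted p under 0.05 (13.4% of all genes did), with a median log2 fold change of 0.03 over the 8. The other 7, Nox3, Duox1, Duox2, Duoxa1, Duoxa2, Noxa1 and Rac2, had between 0 and 6 counts over the 6 libraries. Duox2, chosen after its values were seen, had all 6 of its counts in Hcy, as 0, 3 and 3 in replicates 1, 2 and 3. The exact 95% counting interval of its ratio starts at 1.21 and covers counting error only. With no filter on low counts its edgeR adjusted p was 0.47. Rac3, a RAC GTPase, had a log2 fold change of 0.64 (edgeR adjusted p = 0.358) at 4.91 ± 1.08 CPM in Hcy against 3.17 ± 1.03 CPM in Veh (mean ± SD, n = 3 per group). Poldip2, which encodes a protein that binds p22phox and raises NOX4 activity, had a log2 fold change of -0.14 (95% interval -0.32 to 0.04, edgeR adjusted p = 0.508). Its groups did not overlap, with 64.2 to 67 CPM in Hcy and 69.4 to 78.8 CPM in Veh. The abundant Rac1, chosen after its values were seen, was at 621 ± 19 CPM in Hcy against 618 ± 41.8 CPM in Veh (mean ± SD, n = 3 per group).

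**Figure D4:**
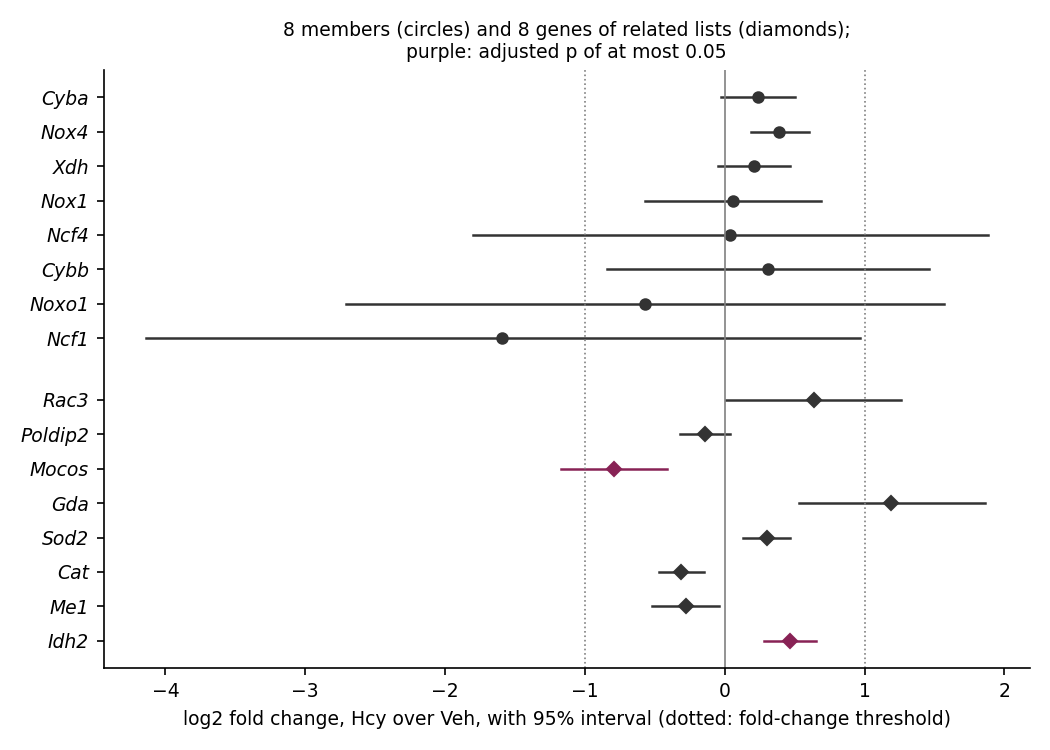
Log2 fold change, Hcy over Veh, with its 95% interval for the 8 genes (circles) and for 8 genes named from the related lists (diamonds), in purple where the adjusted p from edgeR was at most 0.05. The interval of Nox4 (0.19 to 0.60) excludes 0, those of the other 7 members include it, and Mocos and Idh2 passed the adjusted p.

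Enzymes that remove superoxide and hydrogen peroxide, a list of 9 that were all tested, showed no call by edgeR or DESeq2 (0 of 9), against 0.486% and 0.685% of all genes. In edgeR 3 had an unadjusted p under 0.05, as had 13.4% of all genes, and the median log2 fold change was -0.14. Sod2, the mitochondrial superoxide dismutase, was at 237, 234 and 233 CPM in Hcy replicates 1, 2 and 3 and at 180, 185 and 207 CPM in Veh replicates 1, 2 and 3. The groups did not overlap, and the log2 fold change was 0.30 (95% interval 0.13 to 0.47, edgeR adjusted p = 0.085). Cat, which encodes catalase, the enzyme that splits hydrogen peroxide, was at 149, 161 and 150 CPM in Hcy and at 179, 195 and 197 CPM in Veh, for replicates 1, 2 and 3. All Hcy libraries were lower, with a log2 fold change of -0.31 (95% interval -0.47 to -0.15, edgeR adjusted p = 0.0692). Sod3, the extracellular dismutase, had 79 counts in all and a log2 fold change of 0.90 (edgeR adjusted p = 0.338), named after its values were seen. Sod2 and Cat each passed the adjusted p alone with DESeq2 (adjusted p = 0.0139 and adjusted p = 0.0118) and in edgeR without Veh replicate 3 (adjusted p = 0.00324 and adjusted p = 0.0271), the analyses with the higher shares of genes passing given above.

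Of 9 genes listed for NADPH supply, the electron source of the oxidases, 8 were tested. None was called by edgeR or DESeq2 (0 of 8), against 0.486% and 0.685% of all genes. In edgeR 2 had an unadjusted p under 0.05 (13.4% of all genes), and 1, Idh2, passed the adjusted p alone (2.34% of all genes). The median log2 fold change of the 8 was -0.06. Idh2, the mitochondrial isocitrate dehydrogenase that makes NADPH, rose to 43.8 ± 2.27 CPM with Hcy, against 31.7 ± 1.52 CPM with vehicle (mean ± SD, n = 3 per group). Its groups did not overlap. On the log2 scale the difference was 0.47 (standard error 0.08, edgeR quasi-likelihood adjusted p = 0.0229). It passed in 8 of 13 alternatives, among them the prior count of 2, which repeats the main fit's p. With the replicate block the adjusted p of Idh2 was 0.0496 from edgeR. Of the 6 edgeR fits that left out a library it passed only in the one without Veh replicate 3, and the adjusted p of Idh2 reached 0.118. The log2 fold change of Idh2 stayed between 0.44 and 0.51 in those 6 fits. Where Idh2 did not pass among them, only 80 to 151 genes of the whole table did. Me1, the cytosolic malic enzyme, had a log2 fold change of -0.28 (95% interval -0.52 to -0.04, edgeR adjusted p = 0.271), with every Hcy library below every Veh library.

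Among the 9583 other genes with a mean of at least 5 CPM, those whose log2 CPM followed Nox4 most closely over the 6 libraries were Ifit2 (Pearson r 0.993), Rin2 (0.99) and Selenoo (0.989), given as a description since the 6 libraries also share their group. Ifit2, an interferon-induced gene, was at 202 ± 8.98 CPM in Hcy against 174 ± 9.37 CPM in Veh (mean ± SD, n = 3 per group). Rin2, a regulator of endocytic RAB5, was at 35.5 ± 4.01 CPM in Hcy against 24.5 ± 2.41 CPM in Veh (mean ± SD, n = 3 per group). Selenoo, a mitochondrial selenoprotein, was at 12.4 ± 1.02 CPM in Hcy against 10.3 ± 0.428 CPM in Veh (mean ± SD, n = 3 per group).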

How the data were processed

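RNA was sequenced from 3 Hcy and 3 Veh libraries of rBMECs, from RNA with an integrity number of at least 7 per the labels. The authors deposited whole-number counts of reads per gene with gene positions and lengths. The submitters' processing notes name fastp, HISAT2 2.2.1, StringTie 2.2.3, Cufflinks, featureCounts 2.0.6 and DESeq2 1.42.0, and mRatBN7.2, without roles. The deposited table names no build, and its positions are printed as listed. A second deposited table holds normalized counts and the authors' own fold changes and p-values, and was not used.

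Counts were compared with edgeR 4.0.16 (R 4.3.3): TMM factors (0.977 to 1.02), a quasi-likelihood fit of Hcy against Veh without covariates, over genes with at least 10 summed counts. Levels are TMM-scaled CPM, or RPKM between genes. 95% intervals of fold changes use the fit's standard error. Intervals of count ratios are exact (Clopper-Pearson). Alternatives were DESeq2, its size factors, library totals, other count filters, the replicate block, a prior count of 2, other thresholds and leaving out each library. The prior count of 2 changes only the fold change, so its p-values are those of the main fit in every count of alternatives passing. The test was checked on simulated data. The 8 genes and the lists were chosen with earlier results of these data known. Named from each related list were genes past the adjusted p and the 2 with the smallest p, and for Nox4, which had the smallest p of the 8 genes, the 3 genes of closest pattern. Pgd, Pecam1 and Col1a2 were not analysed here.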

Additional observations from a re-analysis of the deposited data

How the results depend on the processing

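None of the 8 genes passed both thresholds under any of the alternatives run. The count of called genes over the table was 71, and 109 with no filter on low counts, 341 with no fold-change threshold and 374 with the unadjusted p, while leaving out each library in turn gave 39 to 112. For Nox4, DESeq2 gave a log2 fold change of 0.40 and edgeR with no filter on low counts 0.39, both past the adjusted p, and fits without 1 library gave 0.33 to 0.46. Without 1 library the log2 fold change ran from 0.14 to 0.35 for Cyba, from -0.17 to 0.58 for Cybb, from -0.16 to 0.25 for Nox1 and from -0.43 to 0.43 for Ncf4, so that the sign of the last 3 depended on single libraries. It ran from -1.25 to -0.02 for Noxo1, from -2.5 to -1.06 for Ncf1 and from 0.16 to 0.31 for Xdh. Genes past the adjusted p alone numbered 341, against 604 in DESeq2 and 957 in edgeR without Veh replicate 3. Leaving out any other library gave fewer, from 80 (without Hcy replicate 1) to 151 (without Veh replicate 1). Of the genes around Xdh, DESeq2 called 1 and edgeR with no filter on low counts called 1, in both cases Gda, higher in Hcy.

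Replicate numbers run from 1 to 3 in both groups, and nothing says that they mark a shared isolation. Deviations from the group means correlated at 0.024, 0.166 and 0.058 between same-numbered libraries over 12296 genes, and at -0.184 to 0.129 between the others. Hcy replicates 2 and 3 correlated best with the Veh library of their own number, and Hcy replicate 1 with Veh replicate 3 (0.129). These values do not decide whether the numbers mark pairs. With no label for pairs, the main fit did not use them. With the replicate block 82 genes were called in place of 71, 0 of them among the 8, and the log2 fold change of Nox4 stayed 0.39. Depth limits Cybb, Ncf1, Ncf4 and Noxo1, with 13 to 49 counts in all. Ncf1 could not be fitted without Veh replicate 2 or 3, and Ncf1, Ncf4, Noxo1 and Cybb could not under filterByExpr. DESeq2 gave no adjusted p for Ncf1, Ncf4 and Noxo1.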

Other observations

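Chosen after their values were seen, 2 genes of the related lists that most cells use had very few counts in these libraries. Gpx4, the phospholipid hydroperoxide peroxidase, had 2, 2 and 9 counts in Hcy replicates 1, 2 and 3 and 0, 0 and 2 in Veh replicates 1, 2 and 3, and Hprt1, the purine salvage enzyme, had 12 counts in all 6 libraries. The log2 fold change of Gpx4 was 2.49 (95% interval -0.42 to 5.41, edgeR adjusted p = 0.42). Without Veh replicate 3, which held the only Veh reads, it was 5.17 (edgeR adjusted p = 0.14). That value is set against a group at 0 counts, so its size is not resolved. Whether these genes share reads with near-identical copies elsewhere in the genome was not tested, so their counts are given with that limit.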
